A study of Mus musculus with 22 samples.

Results

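The VEGF family comprises secreted growth factors that act on blood and lymphatic vessels, and 3 of its 4 genes that were looked for, Vegfa, Vegfb and Vegfd, were among the 10516 genes whose coding and 5′ UTR levels were measured. The genes were chosen by name. Vegfc was not analysed here. The data came from ribosome profiling of NIH3T3 cells, a line of fibroblasts grown from mouse embryos, in which Denr had been depleted. DENR pairs with MCTS1 and helps ribosomes that have translated a short upstream open reading frame (uORF) to start again on the main coding sequence (CDS). The 11 lysates were taken from cells with Denr shRNA1 (3), Denr shRNA2 (3), scramble shRNA (3) or Gfp shRNA (2), the last 2 groups being the controls. The cells of all 4 groups had been transduced with lentiviral vectors, selected with puromycin and treated briefly with cycloheximide, so the controls carried a hairpin as well. Each lysate came from a separate dish, and both its ribosome footprints (RPF-seq) and its RNA (RNA-seq) were sequenced, which makes 22 libraries. Whether the dishes of a hairpin were transduced separately is not given in the sources used here, and p-values measure the spread between these dishes.

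VEGF-A is the main inducer of vessel growth and is widely known for its induction by low oxygen, and VEGF-B is a related ligand of the receptor FLT1. VEGF-D, once called c-fos induced growth factor, is made as a precursor that proteases mature into a ligand of the lymphatic receptor VEGFR-3 (Flt4). The family is known for unusual translational control: Vegfa mRNA carries internal ribosome entry sites and a CUG codon upstream of its AUG from which a longer protein is made. For Denr, the question was whether mRNAs whose 5′ UTR holds uORFs lose translation on their CDS when the factor is depleted. The study named Vegfd among the targets of DENR from these same libraries, and described a move of its footprints from the CDS to the 5′ UTR, so neither the fall of its translation efficiency nor its 5′ UTR-to-CDS change given here is independent evidence, whereas Vegfa and Vegfb were compared with it as its paralogues.

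The libraries held 10927298 to 21649876 (RPF-seq) and 8514076 to 20109684 (RNA-seq) reads on CDS and 5′ UTRs. The knockdown was present in every library: Denr RNA was 15.5 to 44 RPKM (read density per length and library size, as normalised by the authors) in the knockdown lysates and 165 to 190 RPKM in the controls. Of 10 fibroblast markers 9 were among the genes measured, with a summed RNA level of 7870 to 9710 RPKM in knockdown and 7582 to 9048 RPKM in control lysates. Of 10 endothelial markers, which include VEGF receptors, 2 were measured (Cdh5 and Flt1), with sums of 1.96 to 2.72 RPKM and 1.76 to 2.28 RPKM. The only epithelial marker measured, Cdh1 of 5 listed, lay at 2.74 to 4.04 and 3.16 to 4.05 RPKM, and none of the 4 macrophage markers was among the genes measured.

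The 5′ UTRs are described first, because uORFs are the feature on which DENR acts. Vegfd (ENSMUSG00000031380) lies on chromosome X from 164373378 to 164402650 on the plus strand (GRCm38, GENCODE vM21) and has 1 protein-coding transcript. Its 5′ UTR measures 452 nt, longer than that of 87.7% of the 10205 genes with an annotated 5′ UTR (taking the transcript with the longest CDS per gene), and its GC content of 37.8% is low, with only 0.598% of genes lower. It holds 5 AUGs, all of which open a uORF that ends before the CDS. At least 5 upstream AUGs were present in 8.05% of genes. A pair of these uORFs consist of an AUG directly followed by a stop codon, a feature that 6.13% of genes have at least once and 0.696% at least 2 times. The sequences of the 5 starts are shown for comparison with those of the paralogues. Whether they set Vegfd apart in its response was not tested. Each is given with the 6 bases before the AUG and, for the 4 short uORFs, up to the stop codon. Capitals mark the start codon and the stop codon:
Vegfd uORF 1: taagaaATGtctgtagagTGA
Vegfd uORF 2: gaagatATGaccacctccTGA
Vegfd uORF 3: ctgatcATGTGA
Vegfd uORF 4: ttttccATGTAA
Vegfd uORF 5, first bases: tggagaATGccttttgcaac
Vegfd CDS start: ttcaaaATGtatggag

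The windows lie at chrX:164373512-164373532, chrX:164373549-164373569, chrX:164373693-164373704, chrX:164373711-164373722, chrX:164373748-164373767 and chrX:164373824-164373839, all on the plus strand. The AUGs start 312, 275, 131, 113 and 76 nt before the CDS, and the uORFs measure 15, 15, 6, 6 and 48 nt including the stop. The last uORF thus ends 28 nt before the CDS start, which leaves the shortest intercistronic distance of the 5, and the first leaves 297 nt. Each start was scored by its match to the vertebrate start context, with 3 points each for G at -6, A or G at -3 and G at 4, and 1 point each for C at -5, -4, -2 and -1, to a maximum of 13. The upstream AUGs scored 3, 6, 4, 2 and 3, and the AUG of the CDS scored 4, so uORF 2 scored highest and uORF 3 equalled the CDS. In uORFs 3 and 4, of 6 nt, the base at 4 is the T of the stop codon. They cannot gain the 3 points for a G there, which limits their comparison with the CDS. The study did not annotate uORFs this short.

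Vegfb (ENSMUSG00000024962) lies on chromosome 19 from 6982473 to 6987651 on the minus strand. The 5′ UTR of Vegfb-201, the transcript with the longest CDS, measures 240 nt and is very rich in G and C (82.1%, above 96.3% of genes). It holds 2 upstream AUGs (29.2% of genes hold at least 2). The first opens a uORF of 42 nt that ends 41 nt before the CDS, with a context score of 9, equal to that of the CDS start. The second lies 37 nt before the CDS, scores 5, and opens a frame of 117 nt that runs into the CDS. The starts are shown for comparison with those of Vegfd, with the start codons in capitals:
Vegfb uORF 1, first bases: cgcgccATGgggctctggct
Vegfb uORF 2, first bases: agggccATGcgggcgctccc
Vegfb CDS start: ggcaccATGagccccc

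These windows lie at chr19:6987481-6987500, chr19:6987435-6987454 and chr19:6987402-6987417, on the minus strand. Vegfa (ENSMUSG00000023951) lies on chromosome 17 from 46016993 to 46032369 on the minus strand, with 8 protein-coding transcripts. The transcript with the longest CDS, Vegfa-207, starts at a CUG codon after a 5′ UTR of 479 nt without any AUG. In Vegfa-201, which starts at the AUG 534 nt further downstream and in the same frame, the 5′ UTR of 459 nt holds 1 AUG uORF of 12 nt with a score of 7, which starts 187 nt and ends 175 nt before the CDS. That uORF lies inside the CUG-initiated CDS, 347 nt after its start and in another frame. The CUG start, the uORF and the AUG start are shown in capitals:
Vegfa CUG start (Vegfa-207): gtcgcgCTGacggaca
Vegfa uORF (Vegfa-201): gagctcATGgacgggTGA
Vegfa AUG start (Vegfa-201): gaaaccATGaactttc

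These windows lie at chr17:46031881-46031896, chr17:46031532-46031549 and chr17:46031347-46031362, on the minus strand. The lengths recovered from the RPKM values were 487 nt of 5′ UTR and 1176 nt of CDS for Vegfa, 240 and 665 nt for Vegfb, and 452 and 1074 nt for Vegfd. The CDS length of Vegfa equals that of the CUG-initiated form, in which the stretch between the CUG and the AUG, the AUG uORF included, belongs to the CDS. The 5′ UTR of Vegfa and the CDS of Vegfb differ from the annotated 479 and 621 nt, so their gene models in the data were not those drawn here. The map of the uORFs shows how the 3 genes differ in number and placement.

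**Figure D1:**
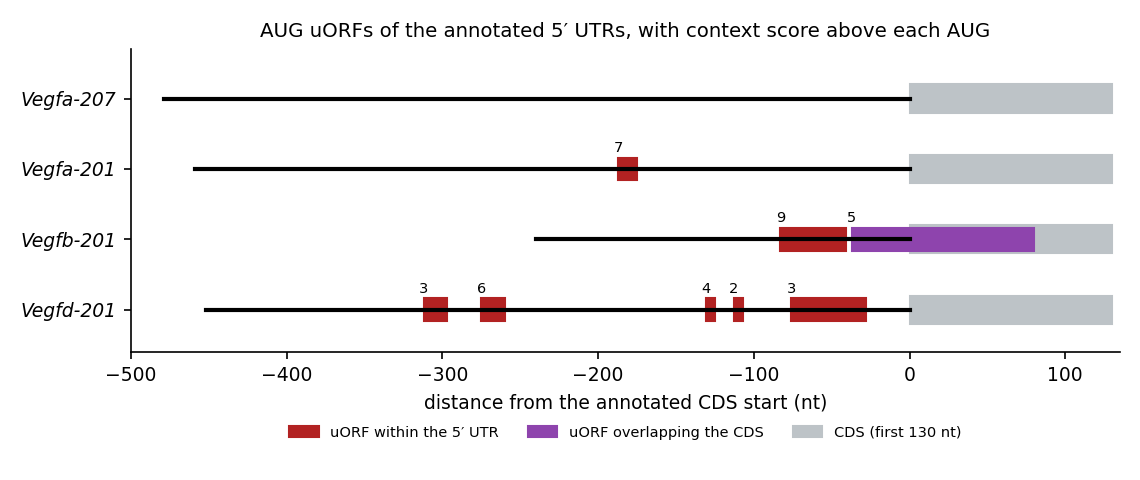
AUG uORFs of 4 annotated transcripts by distance from the annotated CDS start (nt), with the 5′ UTR as a black line, the first part of the CDS in grey, and the context score above each AUG. Vegfd-201 holds 5 short uORFs within its 5′ UTR, and Vegfb-201 holds 2 of which the second overlaps the CDS. Vegfa-207 holds none, and Vegfa-201 holds 1 within its 5′ UTR, with a score of 7.

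Vegfd lost footprints on its CDS after Denr knockdown, while its RNA did not pass the test. The CDS footprints of Vegfd measured 51.9, 52.8 and 54.4 RPKM in the lysates with Denr shRNA1 and 43.8, 51.5 and 51 RPKM with Denr shRNA2. In the controls they measured 70.9, 68.1 and 73.7 RPKM with scramble shRNA and 70.6 and 68.5 RPKM with Gfp shRNA. All 6 knockdown lysates lay below all 5 controls, as they did for 1.97% of all genes. The fold change was 0.723 (log2 change -0.47, SE 0.059, limma adjusted p = 0.00139), and the call held in all 21 alternatives. Footprints on the CDS fell by the same test in 4.55% of genes and rose in 5.47%, so 10% of genes were called in all.

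Vegfd RNA measured 44.6, 39.7 and 40.7 RPKM with Denr shRNA1, 38.4, 43.1 and 44.1 RPKM with Denr shRNA2, 39.3, 40.7 and 35.6 RPKM with scramble shRNA and 40.1 and 40.9 RPKM with Gfp shRNA. The groups overlapped, and the log2 change was 0.087 (95% interval -0.057 to 0.23, limma adjusted p = 0.568). Called changes of RNA made up 3.55% of all genes.

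The translation efficiency (TE), the ratio of CDS footprints to CDS RNA in a lysate, therefore fell for Vegfd. Its TE was 1.16, 1.33 and 1.34 with Denr shRNA1 and 1.14, 1.2 and 1.16 with Denr shRNA2, against 1.8, 1.67 and 2.07 with scramble shRNA and 1.76 and 1.68 with Gfp shRNA. The values did not overlap between knockdown and control, a separation in this direction that 1.32% of all genes showed. The fold change was 0.681 (log2 change -0.55, SE 0.077, limma adjusted p = 0.0125), and only 73 of 10516 genes had a more negative change. TE was called in 0.475% of genes, all of them lower after knockdown. With Denr shRNA1 alone the log2 change was -0.49 and the call was lost (adjusted p = 0.333), in a comparison that called 1 gene in all. With Denr shRNA2 alone it was -0.62 (adjusted p = 0.0315). The plot of levels by lysate shows the footprints and the TE of Vegfd apart from both controls, and the other 2 genes without such a gap.

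**Figure D2:**
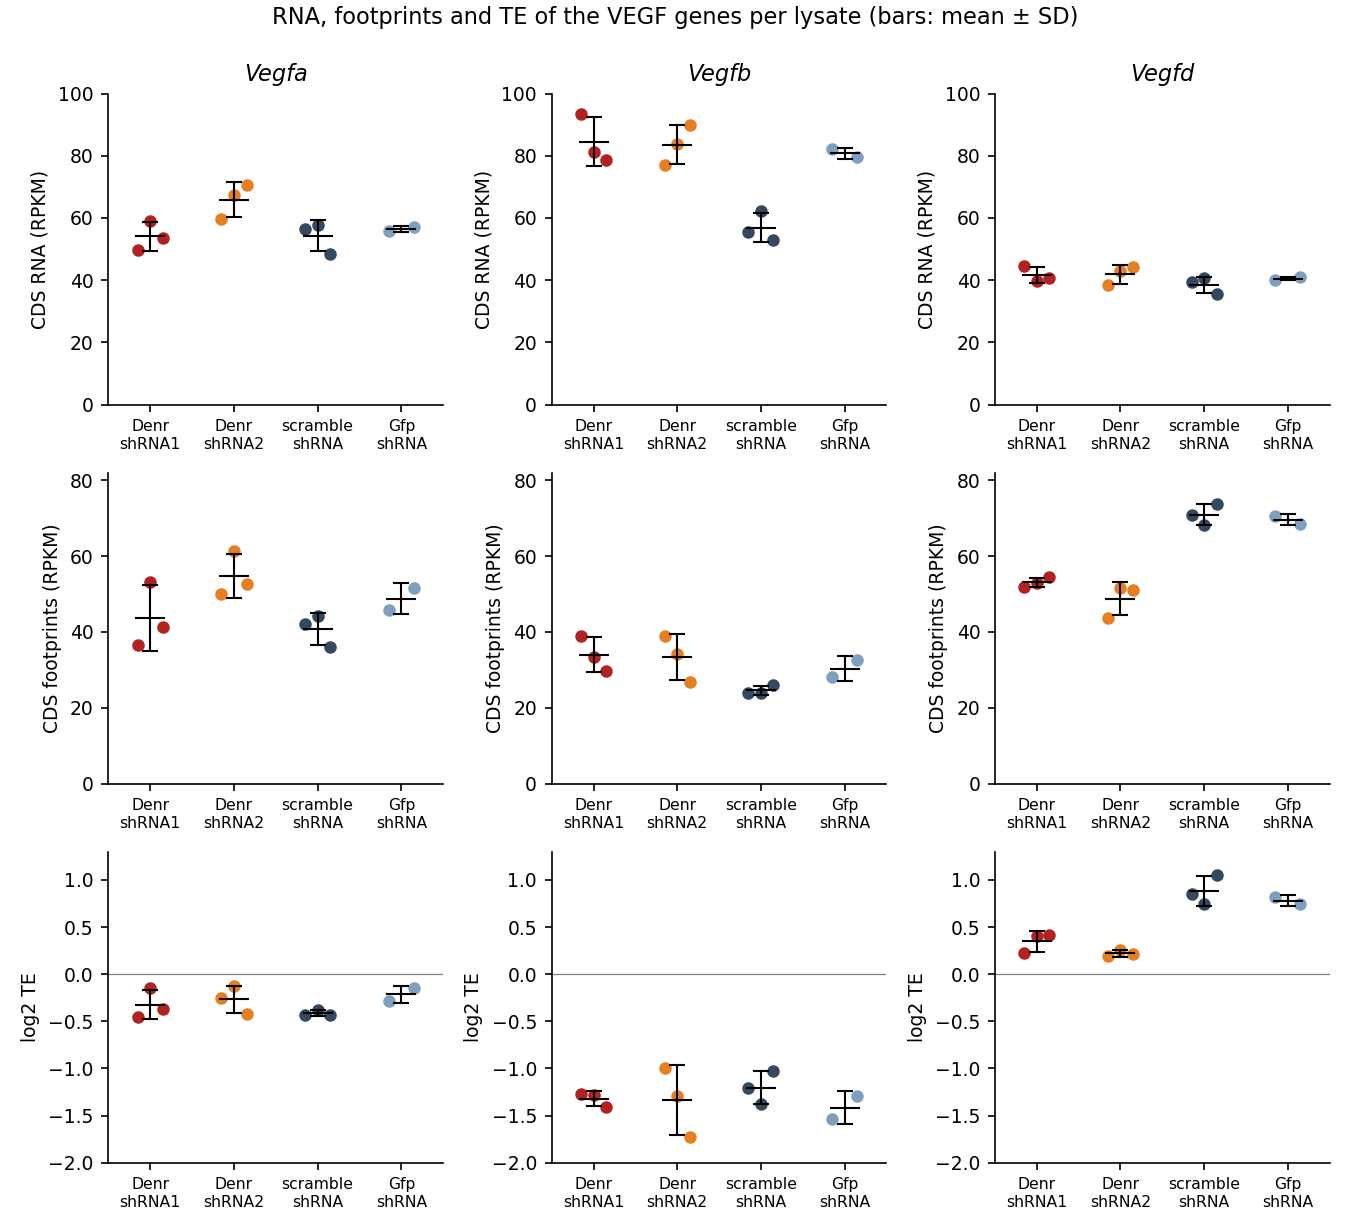
CDS RNA (RPKM), CDS footprints (RPKM) and log2 TE of Vegfa, Vegfb and Vegfd in each lysate, by shRNA, with mean ± SD in black. The 6 knockdown lysates of Vegfd lie at 43.8 to 54.4 RPKM of footprints and its 5 controls at 68.1 to 73.7 RPKM, while its RNA spans 35.6 to 44.6 RPKM over all 11 lysates.

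Vegfa did not show this pattern on the CDS counted here. Its CDS footprints measured 36.5, 53.2 and 41.3 RPKM with Denr shRNA1, 50.1, 61.4 and 52.7 RPKM with Denr shRNA2, 42, 44.2 and 36 RPKM with scramble shRNA and 45.9 and 51.7 RPKM with Gfp shRNA. Its RNA measured 49.8, 59.1 and 53.6 RPKM, then 59.6, 67.4 and 70.7 RPKM, then 56.6, 57.6 and 48.5 RPKM, and 55.9 and 57.2 RPKM in the same order of hairpins. The groups overlapped in both. The log2 changes were 0.15 for footprints (95% interval -0.11 to 0.42, limma adjusted p = 0.482) and 0.11 for RNA (-0.086 to 0.31, adjusted p = 0.593). TE was 0.732 to 0.911 in knockdown lysates (median 0.807) and 0.742 to 0.903 in controls (median 0.768), and its log2 change of 0.038 had an interval of -0.15 to 0.23, which does not reach the change of Vegfd. The CDS counted for Vegfa has the length of the CUG-initiated form. Footprints on the 534 nt between the CUG and the AUG, the AUG uORF included, thus count towards this TE. A change on the stretch after the AUG alone was not tested. The higher values with Denr shRNA2 are taken up with the hairpins below.

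Vegfb rose slightly in footprints without a change of TE that passed the test. Its CDS footprints measured 38.8, 33.4 and 29.6 RPKM with Denr shRNA1, 38.8, 34.3 and 26.9 RPKM with Denr shRNA2, 24, 23.8 and 25.9 RPKM with scramble shRNA and 28.1 and 32.6 RPKM with Gfp shRNA. Knockdown and control overlapped, the log2 change was 0.32 (SE 0.11, limma adjusted p = 0.098), and the call held in 8 of 21 alternatives. It was lost without any 1 of 8 lysates (adjusted p from 0.107 to 0.216), that is, all but Denr shRNA1 replicate 3, Denr shRNA2 replicate 3 and Gfp shRNA replicate 2. Vegfb RNA measured 93.4, 81.2 and 78.7 RPKM, then 77.1, 83.8 and 89.8 RPKM, then 55.5, 62.1 and 53 RPKM, and 82.1 and 79.6 RPKM in the same order. The 3 scramble lysates were thus the low ones, and the 2 Gfp lysates lay among the knockdown lysates. The log2 change of RNA was 0.36 (SE 0.12, limma adjusted p = 0.135), and against scramble shRNA alone it was 0.56 (adjusted p = 0.00633). It also passed without Gfp shRNA replicate 1 (0.44, adjusted p = 0.0506) or replicate 2 (0.43, adjusted p = 0.0836). TE of Vegfb was 0.301 to 0.504 in knockdown lysates (median 0.411) and 0.343 to 0.49 in controls (median 0.41), with a log2 change of -0.038 (95% interval -0.32 to 0.24, limma adjusted p = 0.999).

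Of the 3 members, then, 1 fell in TE, 2 were called in footprints in opposite directions, and none was called in RNA. Of all genes, 0.475% were called in TE, 10% in footprints and 3.55% in RNA. At an unadjusted p below 0.05, 1 of the 3 (Vegfb) passed in RNA, and limma with voom on recovered reads called none in RNA. Voom called Vegfd in footprints and in TE (limma-voom adjusted p = 0.000856 and 0.00224). For TE, voom treated every library as a separate sample and did not match footprints to RNA by lysate. Its smaller value is thus no stronger evidence than that of the fit on within-lysate ratios (limma adjusted p = 0.0125). The footprint call of Vegfb was lost with voom (0.31, limma-voom adjusted p = 0.1). Rises of RNA were called in 2.68% and falls in 0.865% of all genes.

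The difference between Vegfd and each paralogue was tested directly, on log2 TE of Vegfd minus that of the paralogue in the same lysate. Relative to Vegfa, Vegfd TE was higher by 1.17 ± 0.22 (SD, n = 5) in controls and by 0.58 ± 0.15 (SD, n = 6) in knockdown lysates. The change of -0.59 had p = 0.00216 in the exact two-sided permutation test over 462 arrangements, the smallest it can give (adjusted over the 2 pairs, p = 0.00433). Relative to Vegfb, it was higher by 2.13 ± 0.13 (SD, n = 5) in controls and by 1.61 ± 0.27 (SD, n = 6) in knockdown lysates. This change of -0.52 had p = 0.00433 in the same exact test (adjusted p = 0.00433). The knockdown and control lysates did not overlap in either pair, at 0.39 to 0.79 against 0.89 to 1.48 for Vegfa and at 1.18 to 1.94 against 2.03 to 2.36 for Vegfb. Both differences passed in each of the 17 alternatives. Since Vegfd was named a target from these libraries, they are no independent evidence for its fall. The comparison with Vegfa also takes its CDS from the CUG on, as described above.

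The order of the 3 genes differed between RNA and translation. In control lysates the RNA level per length was highest for Vegfb (66.5 ± 13.6 RPKM, SD, n = 5), followed by Vegfa (55.2 ± 3.78 RPKM) and Vegfd (39.3 ± 2.16 RPKM). The control lysates of Vegfb (53 to 82.1 RPKM) and Vegfa (48.5 to 57.6 RPKM) overlapped, and those of Vegfd (35.6 to 40.9 RPKM) lay below both. TE in controls had the order Vegfd, Vegfa, Vegfb without overlap, with geometric means of 1.79, 0.793 and 0.409, against a median of 0.949 over all genes. Vegfd thus ranked above 89.9% of genes in TE and Vegfb above 12.6%. After knockdown the order was unchanged, with Vegfd at 1.14 to 1.34, Vegfa at 0.732 to 0.911 and Vegfb at 0.301 to 0.504. The place of Vegfa holds for the CDS counted from the CUG.

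**Figure D3:**
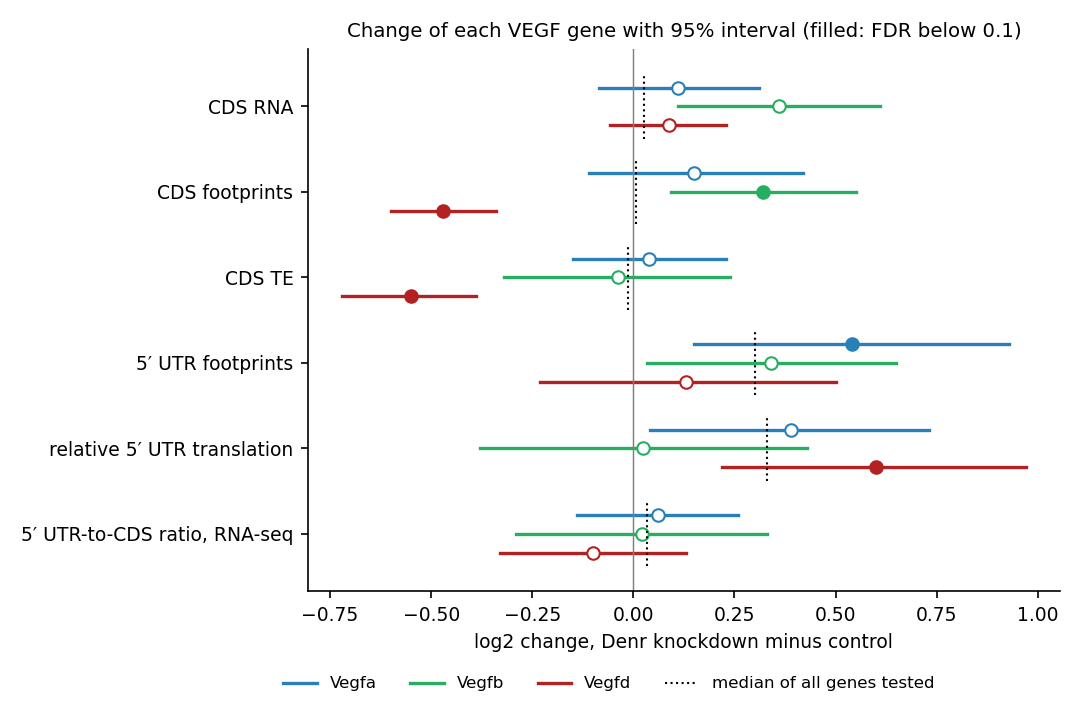
The log2 change (knockdown minus control) of Vegfa, Vegfb and Vegfd in 6 measures, as points with 95% intervals, filled where the FDR is below 0.1, with the median of all genes tested as a dotted line. Vegfd stands below 0 in CDS footprints (-0.47) and TE (-0.55), and all 3 genes have intervals that include 0 in the 5′ UTR-to-CDS ratio of RNA-seq.

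Footprints on the 5′ UTR, which count ribosomes anywhere before the CDS and do not tell which uORF, if any, they translate, were abundant on Vegfd and very abundant on Vegfb. The 3 members were among the 5175 genes that had 20 or more such reads in 9 or more of the 11 RPF-seq libraries. On Vegfd they measured 89.1, 72.7 and 106 RPKM with Denr shRNA1, 88.9, 89.1 and 113 RPKM with Denr shRNA2, 63, 99.8 and 112 RPKM with scramble shRNA and 86.9 and 69.7 RPKM with Gfp shRNA. The groups overlapped and the log2 change was 0.13 (95% interval -0.23 to 0.50, limma adjusted p = 0.58), below the median change of 0.30 over these genes. Relative 5′ UTR translation, the ratio of 5′ UTR to CDS footprints, was 1.38 to 2.22 in knockdown lysates (median 1.83) and 0.888 to 1.51 in controls (median 1.23). The groups overlapped, and the log2 change of 0.60 (SE 0.18, limma adjusted p = 0.0635) was called. Across genes, 18.1% were called in this measure, the same 18.1% when only rises are counted, and the median change was 0.33. The call for Vegfd held in 12 of 20 alternatives. It was lost with Denr shRNA1 alone (0.47, adjusted p = 0.231) and with Denr shRNA2 alone (0.73, adjusted p = 0.269). These 2 comparisons called 5 and 9 genes in all. Scramble shRNA alone as control (0.53, adjusted p = 0.126) and a minimum of 1 RPKM in place of reads (0.60, adjusted p = 0.107) lost it too. The call was also lost without Denr shRNA1 replicate 3 (0.58, adjusted p = 0.104) or Denr shRNA2 replicate 2 (0.61, adjusted p = 0.136). The same held without Gfp shRNA replicate 1 (0.61, adjusted p = 0.124) or scramble shRNA replicate 1 (0.49, adjusted p = 0.118).

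On Vegfa, 5′ UTR footprints rose. The counted 5′ UTR of 487 nt was taken to end at the CUG start because of the length of the CDS. Vegfa-207, with 479 nt before the CUG, holds 0 upstream AUGs, and the sequence of the counted 5′ UTR is not known. The footprints measured 30.2, 41.3 and 43.9 RPKM for Denr shRNA1 and 34.9, 56.3 and 41.6 RPKM for Denr shRNA2. They measured 31.3, 32.5 and 21.8 RPKM for scramble shRNA and 22.1 and 34.8 RPKM for Gfp shRNA. The groups overlapped. The log2 change was 0.54 (SE 0.18, limma adjusted p = 0.0674), in a measure in which 23.1% of genes were called and 23% rose. The call held in 12 of 21 alternatives and was lost over 5′ UTR RNA of the same lysate (0.36, adjusted p = 0.324). With Denr shRNA1 alone (0.44, adjusted p = 0.226) and Denr shRNA2 alone (0.63, adjusted p = 0.248) the call was lost as well. These 2 comparisons called 411 genes and 1 gene in all. Scramble shRNA alone as control also lost the call (0.53, adjusted p = 0.104). It was also lost without Denr shRNA1 replicate 2 (0.53, adjusted p = 0.132), Denr shRNA1 replicate 3 (0.51, adjusted p = 0.113), Denr shRNA2 replicate 2 (0.44, adjusted p = 0.152), Gfp shRNA replicate 1 (0.45, adjusted p = 0.158) or scramble shRNA replicate 3 (0.45, adjusted p = 0.129). Relative 5′ UTR translation of Vegfa was 0.697 to 1.06 in knockdown lysates (median 0.81) and 0.483 to 0.746 in controls (median 0.674). The log2 change was 0.39 (95% interval 0.04 to 0.73, limma adjusted p = 0.123).

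Vegfb carried more footprints per length on its 5′ UTR than on its CDS in every lysate. On the 5′ UTR they measured 120, 168 and 162 RPKM with Denr shRNA1, 153, 141 and 182 RPKM with Denr shRNA2, 105, 128 and 115 RPKM with scramble shRNA and 115 and 142 RPKM with Gfp shRNA. The ratio to the CDS was 4.09 to 5.37 in controls (median 4.37) and 3.08 to 6.72 in knockdown lysates (median 4.55), and only 106 of the 5175 genes had a higher ratio in controls. A ratio above 1 in controls was found in 27.7% of these genes. In RNA-seq the reverse held for Vegfb, with 9.06 to 17.3 RPKM on the 5′ UTR against 53 to 93.4 RPKM on the CDS, a ratio of 0.137 to 0.218 that exceeded that of only 7.11% of genes in controls. These 5′ UTR values rest on 285 to 618 RPF-seq reads and on as few as 22 to 72 RNA-seq reads per library. The log2 change of the Vegfb 5′ UTR footprints was 0.34 (limma adjusted p = 0.116), and it passed without Denr shRNA1 replicate 1 (0.41, adjusted p = 0.0836) or Gfp shRNA replicate 2 (0.40, adjusted p = 0.0703). The change of its relative 5′ UTR translation was 0.023 (95% interval -0.38 to 0.43, limma adjusted p = 0.93). A shift of Vegfb footprints towards the 5′ UTR was thus not detected, and only 7.83% of genes had a lower change.

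**Figure D4:**
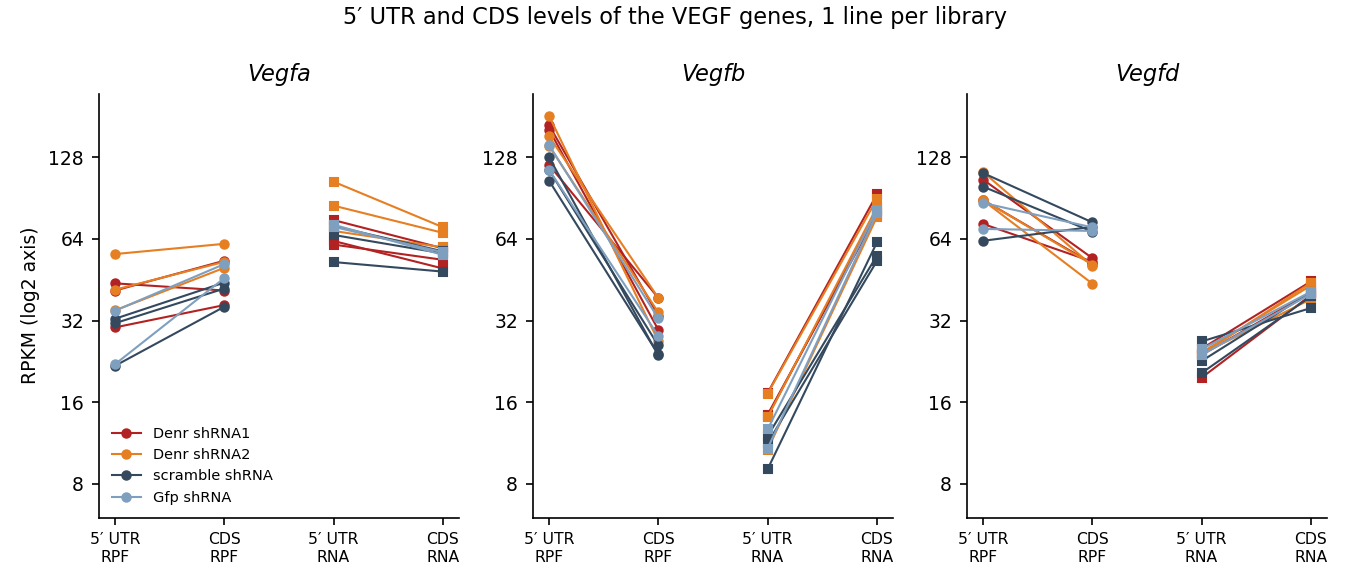
RPKM (log2 axis) of Vegfa, Vegfb and Vegfd on the 5′ UTR and the CDS in RPF-seq (circles) and RNA-seq (squares), with 1 line per library coloured by shRNA. Vegfb falls from 105 to 182 RPKM on the 5′ UTR to 23.8 to 38.8 RPKM on the CDS in RPF-seq and rises from 9.06 to 17.3 RPKM to 53 to 93.4 RPKM in RNA-seq.

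The difference in relative 5′ UTR translation between Vegfd and its paralogues was tested in the same way. Relative to Vegfb, log2 relative 5′ UTR translation of Vegfd was -1.91 ± 0.30 (SD, n = 5) in controls and -1.33 ± 0.39 (SD, n = 6) in knockdown lysates. The change of 0.58 had p = 0.0303 in the exact permutation test (adjusted p = 0.0606), and the lysates overlapped, at -2.30 to -1.54 against -1.86 to -0.85. As with TE, this is no independent evidence, since the study described the shift of Vegfd from these libraries, and the change of Vegfd came with a fall on its CDS (-0.47) and no called change on its 5′ UTR (0.13). It held in 8 of 17 alternatives at an adjusted p below 0.1, and was lost without Denr shRNA1 replicate 1, Denr shRNA2 replicate 1 or 2, Gfp shRNA replicate 2 or scramble shRNA replicate 1 or 2 (0.48 to 0.58, adjusted p from 0.105 to 0.152). Relative to Vegfa, the values were 0.90 ± 0.48 (SD, n = 5) and 1.11 ± 0.32 (SD, n = 6), and the change of 0.21 did not pass (exact permutation test, p = 0.383, adjusted p = 0.383), with values of 0.25 to 1.35 in controls and 0.83 to 1.54 after knockdown. These lysates did not show a rise of Vegfd beyond that of Vegfa, whose CDS here takes in the stretch from the CUG to the AUG.

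The ratio of 5′ UTR to CDS reads in RNA-seq, which reads the same ratio without ribosomes, was called in 0% of genes (221 of 5175 at an unadjusted p below 0.05). None of the 3 members passed at that level. The log2 changes were -0.10 for Vegfd (95% interval -0.33 to 0.13), 0.06 for Vegfa (-0.14 to 0.26) and 0.021 for Vegfb (-0.29 to 0.33). The RNA ratio of Vegfd was 0.496 to 0.629 in knockdown lysates and 0.522 to 0.754 in controls, and these overlapped.

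**Figure D5:**
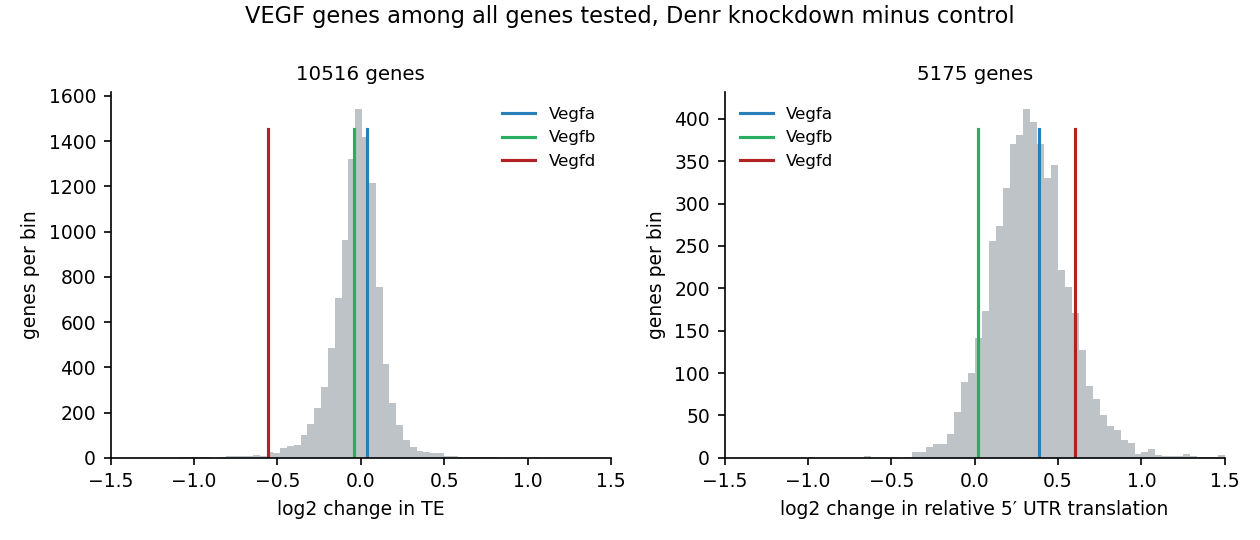
Histograms of the log2 change (knockdown minus control) over all genes tested, for TE (10516 genes, left) and relative 5′ UTR translation (5175 genes, right), with the 3 VEGF genes as coloured lines and values beyond the axis drawn at its ends. In TE, Vegfd (-0.55) lies in the lower tail and the other 2 genes near the median (-0.012), whereas in relative 5′ UTR translation most genes lie above 0 (median 0.33) and Vegfb (0.023) lies low.

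The hairpins were compared within each arm. TE differed between Denr shRNA2 and Denr shRNA1 in 0% of genes (limma, 392 at an unadjusted p below 0.05), and between Gfp and scramble shRNA in 0% (233 genes). The same held for relative 5′ UTR translation, at 0% (140 genes) and 0% (201 genes). In RNA, 2.06% of genes differed between the Denr hairpins and 0.704% between the control hairpins. In CDS footprints these shares were 9.69% and 8.48%. The TE of Vegfd differed between the Denr hairpins by -0.13 (95% interval -0.36 to 0.098) and between the control hairpins by -0.099 (-0.35 to 0.16), both smaller than its change after knockdown. Vegfa was higher with Denr shRNA2 than with Denr shRNA1 by 0.28 in RNA (95% interval 0.058 to 0.51, limma adjusted p = 0.261) and by 0.34 in footprints (0.053 to 0.62, adjusted p = 0.169), and neither passed. Without Denr shRNA1 replicate 2 the footprint difference was 0.49 and passed (adjusted p = 0.0402). Vegfb RNA was 80.8 ± 1.76 RPKM (SD, n = 2) with Gfp shRNA and 56.9 ± 4.7 RPKM (SD, n = 3) with scramble shRNA. This difference between the control hairpins of 0.51 on the log2 scale passed (limma adjusted p = 0.0981) but held in 2 of 12 alternatives, and it was lost without any 1 of 10 lysates, all but Denr shRNA1 replicate 1 (0.46 to 0.57, adjusted p from 0.101 to 0.515). It exceeded the change of Vegfb RNA after knockdown (0.36). The part of the control hairpin in that change was not tested.

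Genes that act with the VEGF ligands were counted in 8 lists, with 63 genes measured. For comparison, 3.55% of all genes were called in RNA, 10% in footprints and 0.475% in TE, and 16.1%, 23.6% and 6.66% lay below an unadjusted p of 0.05, so that at these shares a single list would hold few calls or none. In the wider superfamily, Pdgfa and Pdgfc were measured of 5 listed, and neither was called in RNA, footprints or TE. Pdgfa, a PDGF chain, had log2 changes of -0.18 in RNA and 0.023 in TE, and Pdgfc 0.23 and 0.016. At an unadjusted p below 0.05, 1 of the 2 passed in RNA and 1 in footprints, none in TE, and voom called none. Of 5 receptors and co-receptors, 3 were measured, and none was called. The receptor Flt1 had log2 changes of 0.31 in RNA and 0.34 in footprints (limma adjusted p = 0.263 and 0.139), and it was the 1 gene of the list below an unadjusted p of 0.05 in either measure. The co-receptor Nrp2 was the most abundant of them, at 82.8 ± 8.62 RPKM of RNA (SD, n = 5) in controls and 90.3 ± 6.19 RPKM (SD, n = 6) after knockdown. Voom called none of the receptors. The receptors Kdr and Flt4 were not analysed here.

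Of 11 genes for proteolytic processing of VEGF-C and VEGF-D, 5 were measured and 1 was called in RNA and in footprints, beside 3.55% and 10% of all genes. Plat, tissue plasminogen activator, fell in RNA from 51.1 ± 4.28 RPKM (SD, n = 5) to 34 ± 4.12 RPKM (SD, n = 6), a log2 change of -0.59 (limma adjusted p = 0.00692). Its footprints fell by 0.57 on the log2 scale (limma adjusted p = 0.00521), and the call held in all 21 alternatives in both measures. The convertase Furin, which cleaves the precursor, had a log2 change of -0.11 in footprints (limma adjusted p = 0.566), and cathepsin D (Ctsd) had 0.12 (limma adjusted p = 0.273). The median changes of the list were -0.036 in RNA and -0.11 in footprints, beside 0.027 and 0.0072 over all genes. At an unadjusted p below 0.05, 1 of the 5 passed in RNA, 1 in footprints and 0 in TE, and voom called as many.

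Of 7 AP-1 genes, whose products are transcription factors and to which the older name of Vegfd refers, 6 were measured. Fosl1 fell in RNA (log2 change -0.35, limma adjusted p = 0.0975) and in footprints (-0.44, limma adjusted p = 0.0287), and Jun fell in footprints (-0.24, limma adjusted p = 0.0723). The call for Fosl1 RNA held in 9 of 21 alternatives, that for its footprints in 20 and that for Jun in 12. Each was lost in some fits with 1 lysate left out, with changes of -0.37 to -0.29 for Fosl1 RNA and -0.25 to -0.20 for Jun footprints, except Fosl1 footprints, which were lost with Denr shRNA1 alone (-0.30, adjusted p = 0.171). The list had median changes of -0.22 in RNA and -0.17 in footprints, and its members ranged in footprints from -0.44 to 0.37. At an unadjusted p below 0.05, 4 of the 6 passed in RNA, 2 in footprints and 0 in TE. The shares of all genes were 16.1%, 23.6% and 6.66%. Voom called 1 in RNA, 2 in footprints and 0 in TE.

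Of 10 genes for hypoxia sensing, which regulate Vegfa by oxygen, 8 were measured and limma called 0 in RNA, footprints or TE, as few as the shares of all genes (3.55%, 10% and 0.475%) give for 8 genes, with 0, 1 and 2 below an unadjusted p of 0.05 and none called by voom. Hif1a, the oxygen-labile subunit of the hypoxia factor, had log2 changes of -0.18 in RNA and 0.015 in TE. Of 20 hypoxia-induced genes 19 were measured, with 0 called in RNA, 4 in footprints and 0 in TE, beside 3.55%, 10% and 0.475% of all genes. The glycolytic genes Hk2 (-0.49), Ldha (-0.31) and Pgk1 (-0.23) fell in footprints, with limma adjusted p of 0.0345, 0.0245 and 0.094. Other glycolytic genes of the list were not called, among them Pfkfb3 (-0.22, adjusted p = 0.119), Aldoa (-0.12, adjusted p = 0.418) and Eno1 (-0.054, adjusted p = 0.684). Ddit4, an inhibitor of mTORC1 signalling, rose by 0.44 (adjusted p = 0.0256). The calls held in 20 of 21 alternatives for Hk2, Ldha and Ddit4, all lost with Denr shRNA2 alone, and in 10 for Pgk1. At an unadjusted p below 0.05, 6 of the 19 passed in RNA, 7 in footprints and 2 in TE, beside 16.1%, 23.6% and 6.66% of all genes. Voom called 0 in RNA, 4 in footprints and 0 in TE. The median change in footprints was -0.028, close to that over all genes.

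Of 6 genes for proteins that set the stability of Vegfa mRNA all were measured and none was called, with 0 below an unadjusted p of 0.05 in RNA, footprints and TE and 0 by voom. Of 16 genes of VEGF signalling 14 were measured. Mapk3, the kinase ERK1, rose in RNA (log2 change 0.49, limma adjusted p = 0.0758) and in footprints (0.32, limma adjusted p = 0.0409), with the calls held in 11 and 19 of 21 alternatives, the footprint call being lost without scramble shRNA replicate 2 (0.28, adjusted p = 0.109). Mapk3 RNA in controls ranged from 28 to 48.7 RPKM and after knockdown from 46.5 to 58.2 RPKM, so the groups overlapped. Of the 14 signalling genes, 5 lay below an unadjusted p of 0.05 in RNA, 4 in footprints and 1 in TE. The shares of all genes were 16.1%, 23.6% and 6.66%. Voom called 1 in RNA, 1 in footprints and 0 in TE. None of the 63 genes of these lists was called in TE by limma or voom, which is near the share of all genes (0.475%).

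The partners of DENR were read as a check. Denr fell by 2.75 on the log2 scale in RNA (limma adjusted p = 0.00035) and by 3.05 in footprints (limma adjusted p = 0.000445). Mcts1 RNA had a change of -0.23 (limma adjusted p = 0.583), and its TE had a change of 0.48 (limma adjusted p = 0.174). In TE, all 3 genes lay below an unadjusted p of 0.05, beside 6.66% of all genes. Limma, which called 0.475% of all genes in TE, and voom called 0 of them. The TE changes of Denr (-0.30) and Eif2d (-0.20) were opposite in sign to that of Mcts1. Eif2d, a related factor, had -0.0036 in RNA (limma adjusted p = 0.991) and fell in footprints by 0.20 (limma adjusted p = 0.0616). This call held in 15 of 21 alternatives, in a measure in which 10% of all genes were called.

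As a description of likeness, the log2 CDS footprints of each member were correlated over the 11 RPF-seq libraries with those of 10184 genes of at least 1 RPKM on average. The libraries fall into knockdown and control, so a gene that changed with the knockdown resembles others that did. The 3 genes most like Vegfd were Baiap2 (Pearson r = 0.958), Denr itself (0.957) and Anapc5 (0.945). Baiap2 ranged from 80 to 91.9 RPKM in knockdown and from 96 to 99.8 RPKM in control libraries, and Anapc5 from 23.5 to 39.4 and from 63.5 to 69.8 RPKM. Vegfa was most like Mturn (0.934), Mcur1 (0.926) and Mark4 (0.925), and Vegfb most like Hist1h2br (0.935), Chmp7 (0.927) and Invs (0.924). Hist1h2br belongs to a family of near-identical histone genes, so its value is uncertain. Among the members, Vegfd had r = -0.41 with Vegfa and -0.73 with Vegfb, and Vegfa and Vegfb had 0.27.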

How the data were processed

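Adapters were trimmed by the authors with cutadapt, and reads within size limits were mapped with Bowtie2 and TopHat, ribosomal and transfer RNA first and GRCm38 last. Isoforms judged expressed by Cufflinks defined the regions. RPF-seq reads were placed by their putative A-site, and reads that could fall in either region went to the CDS. Mitochondrial and scarcely read genes were dropped, and the authors deposited RPKM values, scaled by upper quartile (edgeR) for RPF-seq and RNA-seq separately. TE levels thus depend on this scaling, and the isoforms set the lengths.

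From these values, log2(RPKM + 0.1) of 6 knockdown lysates was set against that of 5 controls in limma 3.58.1 (R 4.3.3; lmFit, eBayes with trend), with Benjamini-Hochberg adjustment over all genes and an FDR of 0.1. Fold changes are on the log2(value + 0.1) scale. Read numbers were recovered from the steps of the values (231352 of 231352 CDS and 228800 of 228800 finite 5′ UTR values came out whole, within 0.005 of a read). The lengths that came with them equalled the annotation for the CDS in 93.1% and for the 5′ UTR in 80.6% of 2560 genes with a single transcript, which told the unnamed columns apart. The reads served for depth, for the minimum of 20 reads on the 5′ UTR in 9 of 11 RPF-seq libraries and for voom, which was added after the data were seen and called 36 genes in TE, 389 in RNA and 1152 in footprints. The 116 genes without a finite 5′ UTR value were left out of 5′ UTR measures. Vegfd minus each paralogue was compared by exact permutation over lysates. Only the limma fit of knockdown against control was tried on simulated CDS footprint and RNA values, which held no hairpin or replicate effects. TE, the 5′ UTR ratios, the permutation test and the uORF search were not tried in this way. Upstream AUGs were searched in GENCODE vM21, taking for every gene its longest annotated CDS.

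The members and lists were chosen with earlier results of these data known. Named were the 3 members, called genes of the lists (up to 4 a list, by size), the 3 genes most like each member, and further list genes for their roles, the last chosen after their values were seen. Alternatives were pseudocounts, centring, eBayes without trend, single hairpins, scramble alone, a replicate block, lysates left out, low-value filters, an interaction term, and 5′ UTR footprints over 5′ UTR RNA. No pair of libraries of a group agreed within sampling noise. Tables were handled with pandas 2.3.3 and numpy 2.4.6 in Python 3.11.15, exact tests used scipy 1.17.1, and plots matplotlib 3.10.9.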

Additional observations from a re-analysis of the deposited data

Results flagged for a closer look

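Of 36 groups checked (3 genes, 6 measures, knockdown and control), 4 held a lysate far from the others, where chance gives about 1 in 20. In the controls, scramble shRNA replicate 3 was low in Vegfa RNA (log2 value 5.60, others 5.81 to 5.85) and in Vegfd RNA (5.16, others 5.30 to 5.36). Scramble shRNA replicate 2 was high in relative 5′ UTR translation of Vegfb (log2 value 2.43, others 2.03 to 2.14). Among knockdown lysates, Denr shRNA2 replicate 1 was low in Vegfd CDS footprints (log2 value 5.46, others 5.68 to 5.77). Without scramble shRNA replicate 3 the change of Vegfd TE was -0.50 (limma adjusted p = 0.0429), and without Denr shRNA2 replicate 1 it was -0.54 (adjusted p = 0.0383).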

How the results depend on the processing

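Over the alternatives, Vegfd footprints (log2 change -0.53 to -0.41) and TE (-0.62 to -0.49) kept their direction, and the call held in 21 of 21 for footprints and in 21 of 22 for TE, the exception being Denr shRNA1 alone. The interaction term and voom, which did not match the libraries by lysate, are among the 21 for TE. The 2 differences of Vegfd TE from its paralogues passed in all 17 alternatives each. Of 663 alternative values of the 3 members (42 results), 575 kept direction and call, 41 lost the call, 10 gained it and 37 changed sign, 26 of the last for Vegfb. The causes were not tested. Replicate numbers were not taken to pair the lysates, since not every same-numbered pair had deviations correlated above 0.1 (10 of 15 in RNA, 13 of 15 in footprints and 10 of 15 in TE). The mean correlation for same numbers was nevertheless positive (0.326, 0.18 and 0.226), a hint of shared variation. The mean for different numbers (-0.163, -0.0894 and -0.113) is no separate comparison, because deviations from a group mean cancel out within the group.

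Against 373 genes called in RNA, Denr shRNA1 alone gave 159, scramble shRNA alone as control 940 and the replicate block 1003. Against 1053 in footprints, scramble alone gave 2651 and the block 1940. Against 50 in TE, Denr shRNA1 alone gave 1 and scramble alone 10. Against 1198 in 5′ UTR footprints, Denr shRNA1 alone gave 411, Denr shRNA2 alone 1 and the block 2289. Against 939 in relative 5′ UTR translation, a minimum of 1 RPKM in place of reads gave 131, Denr shRNA1 alone 5, Denr shRNA2 alone 9, scramble alone 514 and the block 2418.

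With Denr shRNA1 alone Vegfa changed by -0.028 in RNA and -0.017 in footprints. Vegfb 5′ UTR footprints changed by -0.036 over 5′ UTR RNA. Vegfb relative 5′ UTR translation changed by -0.040 with Denr shRNA1 alone, -0.026 with the block and -0.039 with scramble alone, and its ratio in RNA-seq by -0.047 with Denr shRNA2 alone, -0.014 with the block and -0.13 with scramble alone. With the block, Vegfd footprints differed between Gfp and scramble shRNA by 0.00048. The block also brought past the threshold Vegfb RNA (adjusted p = 0.0828), Vegfb 5′ UTR footprints (0.0527), Vegfa relative 5′ UTR translation (0.0668) and Vegfa footprints between the Denr hairpins (0.0265). The difference of Vegfd from Vegfb in relative 5′ UTR translation was lost with Denr shRNA1 alone (0.51), Denr shRNA2 alone (0.64) and scramble alone (0.57).

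Leaving out 1 lysate at a time gave 139 to 734 genes in RNA, 484 to 1946 in footprints, 14 to 72 in TE, 383 to 1745 in 5′ UTR footprints and 38 to 1773 in relative 5′ UTR translation. For TE between the Denr hairpins it gave 0 to 1 genes, the 1 without scramble shRNA replicate 1. It moved Vegfb from -0.11 to 0.044 in TE, from -0.088 to 0.14 in relative 5′ UTR translation and from -0.061 to 0.11 in the RNA-seq ratio. Between the Denr hairpins it moved Vegfb from -0.067 to 0.061 in RNA, from -0.15 to 0.11 in footprints, from -0.19 to 0.18 in TE and from -0.13 to 0.28 in relative 5′ UTR translation, Vegfd RNA from -0.033 to 0.067 and Vegfa TE from -0.012 to 0.14. Between the control hairpins it moved Vegfa RNA from -0.013 to 0.11 and Vegfd footprints from -0.055 to 0.0015. The difference of Vegfd from Vegfb in relative 5′ UTR translation ranged from 0.48 to 0.68. In 5′ UTR measures, depth limits Vegfb in RNA-seq most, at 22 to 72 reads per library.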
